A study of Mus musculus with 6 samples.

Results

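The subject is 9 genes whose products carry the signal of the precursor B cell receptor (pre-BCR) from the membrane into the cell, the adaptors Blnk (SLP-65), Lat, Lcp2 (SLP-76) and Grb2, the kinases Lyn, Syk, Zap70 and Btk, and the phospholipase Plcg2. Every probe of the array whose design name is one of these genes was taken, which gave 14 of 55681 probes and 9 of the 34797 names used by the design. Transcripts were measured in 1676 cells, a mouse pre-B cell line of the genotype SLP-65-/- LAT-/-, so that all groups lacked the 2 adaptors encoded by Blnk and Lat. All cells were kept in medium with an excess of IL-7, the growth factor of B cell precursors, and were transduced with a retroviral vector and selected with puromycin. The control group carried the empty vector, a second group overexpressed miR-26a from a human miR-26a-2 construct, and the third expressed the miR-26 sponge, an mRNA with repeated binding sites that sequesters miR-26a and miR-26b. Each group had 2 arrays, 1 from each of 2 experiments for which cell clones were generated independently. The model is thus 1 cell line, the sponge had the empty vector as its control rather than a scrambled version of itself, and all values are RNA levels.

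When the pre-BCR is engaged, Src family kinases such as Lyn phosphorylate the CD79 chains, and Syk is recruited to them and activated. Syk then phosphorylates the adaptor SLP-65, which brings Btk and PLC gamma 2 together so that phospholipids are cleaved and calcium is mobilized. In T cells the same task falls to ZAP-70, LAT and SLP-76, and GRB2 links receptors of both kinds to Ras.

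The question asked of these genes was whether raising miR-26a, or sequestering the miR-26 family, changed their transcripts. miR-26a and miR-26b share the seed, bases 2 to 8, by which a miRNA pairs with its targets. The mouse mature forms (RefSeq, GRCm38.p6) are shown with the seed in capitals. miR-26a is encoded on chromosomes 9 and 10 and miR-26b on chromosome 1.
mmu-miR-26a-5p: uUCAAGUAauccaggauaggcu
mmu-miR-26b-5p: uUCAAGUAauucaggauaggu
None of the 14 probes holds a word complementary to this seed. TACTTGA (the complement of bases 2 to 8), ACTTGAA and ACTTGA were sought in the 60 bases of each probe as written, and were found in 0.431%, 0.7% and 1.96% of all probes. A probe covers only a small piece of its transcript, and this says nothing of the rest of it.

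The arrays read Lat and Zap70 through the following probes, which are shown because the line lacks the first gene and the second is best known from T cells. The Lat probe lies at chr7:133507719-133507778 on the minus strand and the Zap70 probe at chr1:36839315-36839374 on the plus strand (mm9). Both are written in full and carry no marked part.
Lat A_51_P495242: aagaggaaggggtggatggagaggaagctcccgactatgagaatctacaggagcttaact
Zap70 A_55_P2153122: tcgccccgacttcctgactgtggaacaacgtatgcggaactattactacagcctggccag

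On each array, 28823 to 29800 of the 59305 spots exceeded background clearly by the flag of the scanner software, and saturated spots numbered 0. Of 13 B cell precursor markers on the array, 12 had this flag on all 6 arrays, among them Cd79a, Pax5 and Igll1. Of 12 T cell markers 4 had it, among them Cd3e, Cd4 and Cd5, whereas Cd3g, Cd8b1, Cd2 and Bcl11b had it on no array (not well above background). The signal of a probe is given as the quantile-normalized log2 processed signal, so that a difference of 1 is a doubling, and levels of different probes are not comparable. With 2 arrays a group, precision is low throughout.

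Each of the 14 probes exceeded background clearly on every array, and 13 passed the signal limit for testing. 1 of the 13, the Blnk probe, differed from control at an adjusted p under 0.05 (limma, Benjamini-Hochberg over 20168 probes), and it was lower with miR-26a. Over all tested probes this was the case for 5.14% (lower) and 4.5% (higher). The changes of the 13 probes with miR-26a had a median of -0.13 on the log2 scale and ranged from -0.49 to 0.17, and 10 of 13 were below 0, compared with a median of 0.01 and 47.3% over all tested probes. With the sponge, limma called 0 of 13 probes in either direction, while 0.0% (lower) and 0.00992% (higher) of all probes were called. Their changes ranged from -0.25 to 0.12 with a median of -0.06, and 8 of 13 were below 0 (48.6% of all tested probes).

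With unadjusted p under 0.05, 4 of 13 probes were lower with miR-26a (Blnk, Lyn and 1 probe each of Syk and Zap70) and 0 were higher, where all tested probes gave 13.0% and 14.3%. The criterion of the study's methods, a level at least 20% lower at an unadjusted p under 0.05, was met by 2 of 13 with miR-26a (Blnk and Syk A_55_P2172867) and by 7.05% of all probes. With the sponge, 1 of 13 was lower (Syk, 8.72% of all probes) and 0 were higher (7.38%), and the criterion of a level at least 20% higher at an unadjusted p under 0.1 was met by 0 of 13 (4.17%). The 2 miR-26a arrays lay below both controls for 6 of 13 probes (22.9% of all) and above them for 1 (26.5%). The sponge arrays lay below both controls for 5 of 13 (20.4%) and above them for 0 (17.3%).

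**Figure D1:**
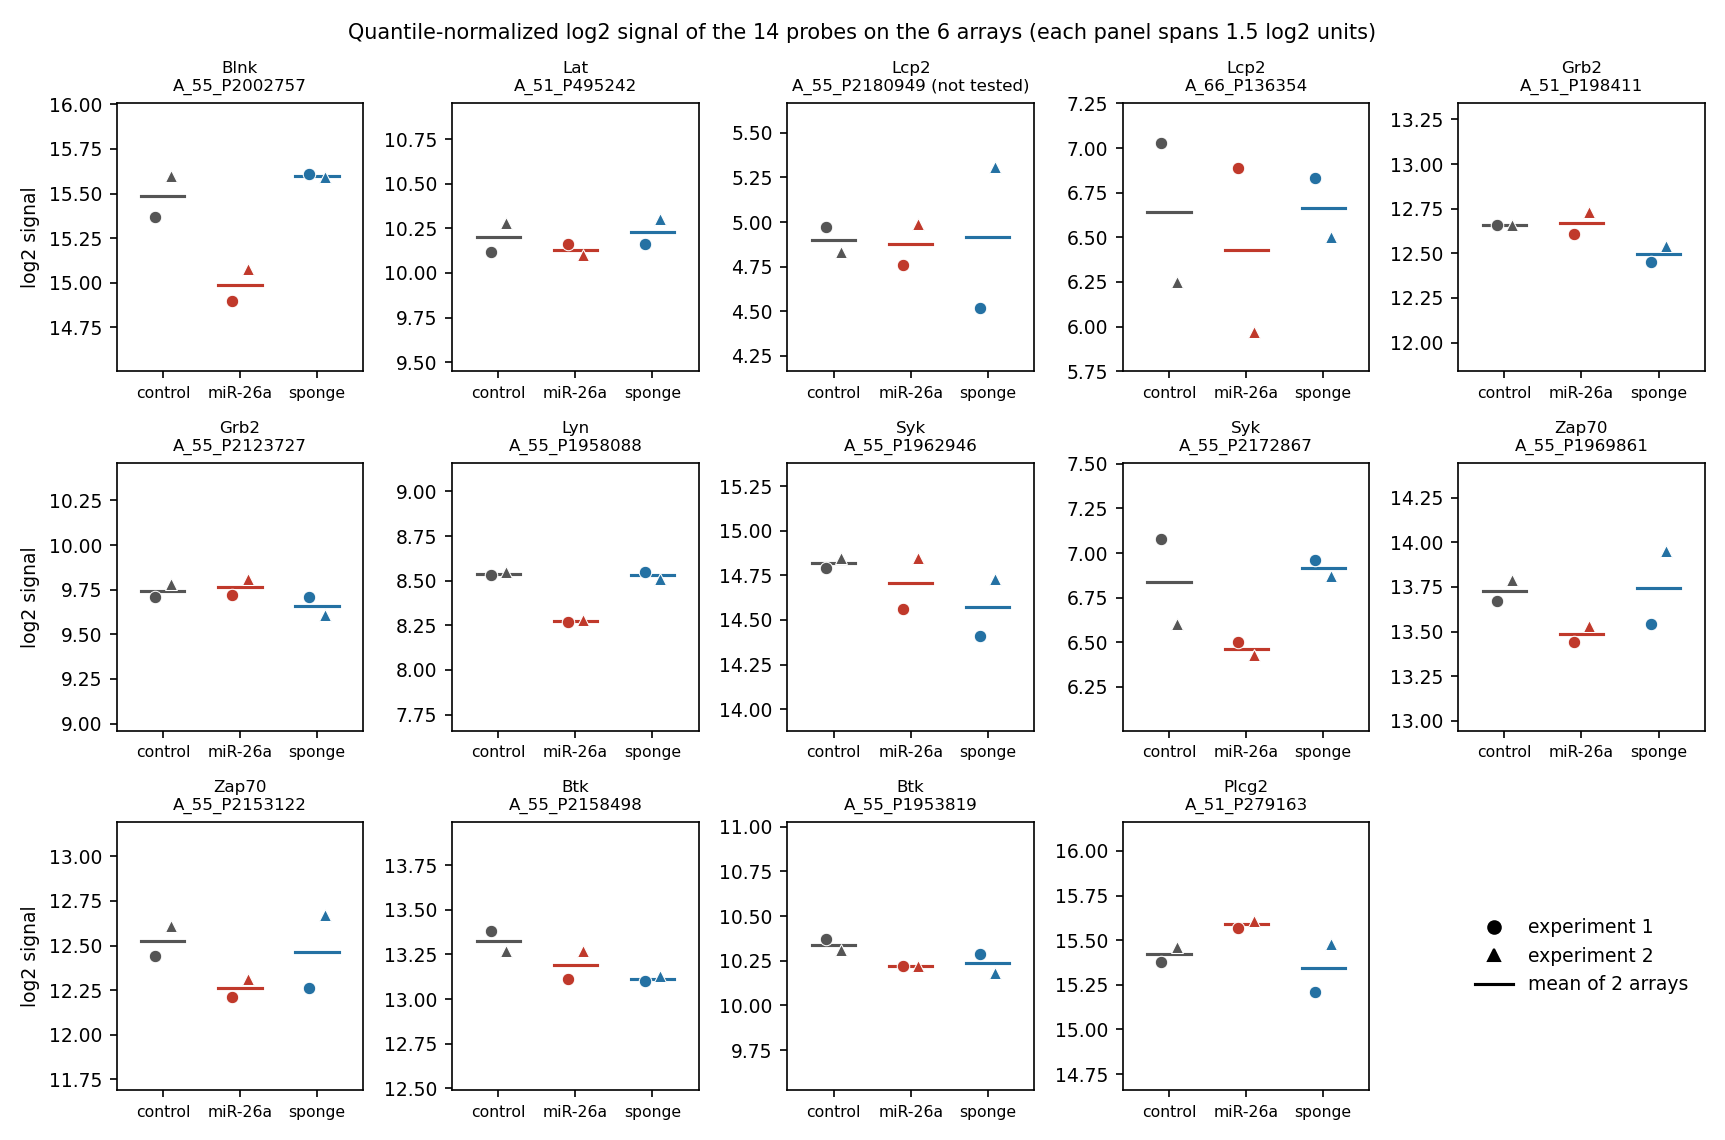
Quantile-normalized log2 signal (y axis) of the 14 probes on the control, miR-26a and sponge arrays (x axis). Circles are experiment 1, triangles experiment 2 and bars the means of 2 arrays, and each panel spans the same log2 range on its own scale. The miR-26a arrays of Blnk lie at 14.90 and 15.08, below the other 4 arrays.

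Blnk encodes SLP-65, the B cell adaptor on which Btk and PLC gamma 2 assemble. Its only probe (A_55_P2002757, mm9 chr19:41003426-41003485, minus strand) gave a log2 signal of 15.37 and 15.60 in control, 14.90 and 15.08 with miR-26a and 15.61 and 15.59 with the sponge. Both miR-26a arrays lay below all 4 others, while the control and sponge arrays overlapped. The level was 15.48 ± 0.16 (SD, 2 arrays) in control and 14.99 ± 0.13 with miR-26a.

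Blnk fell with miR-26a by 0.49 on the log2 scale (SE 0.09, 95% interval -0.71 to -0.28, limma adjusted p = 0.0275), which means that the signal decreased by 29.0%. The fall was alike in both experiments, with differences of -0.47 and -0.52. With the sponge the difference from control was 0.12 (95% interval -0.10 to 0.33, limma adjusted p = 0.538), 0.24 in experiment 1 and -0.01 in experiment 2. The direct difference between miR-26a and sponge was -0.61 (SE 0.09, limma adjusted p = 0.0123). In RNA of whole cultures, fewer cells with the transcript and less transcript per cell cannot be told apart.

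The call for Blnk with miR-26a was lost when the experiment was not used as a block (limma adjusted p = 0.105), when dim probes were not filtered (0.287) and when control replicate 1 (0.132), control replicate 2 (0.207) or miR-26a replicate 1 (0.0662) was left out. It was also lost with an unpaired t-test (0.415). The call between miR-26a and sponge was lost without the filter (0.206), with the unpaired t-test (0.325) and without sponge replicate 1 (0.075) or sponge replicate 2 (0.0502). The change against control stayed between -0.57 and -0.42 in all 14 alternatives, as the plot of Blnk by processing shows. The line is labelled SLP-65-/-, and the sources used here do not say which part of Blnk is missing, so this signal checks nothing about the deletion.

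**Figure D2:**
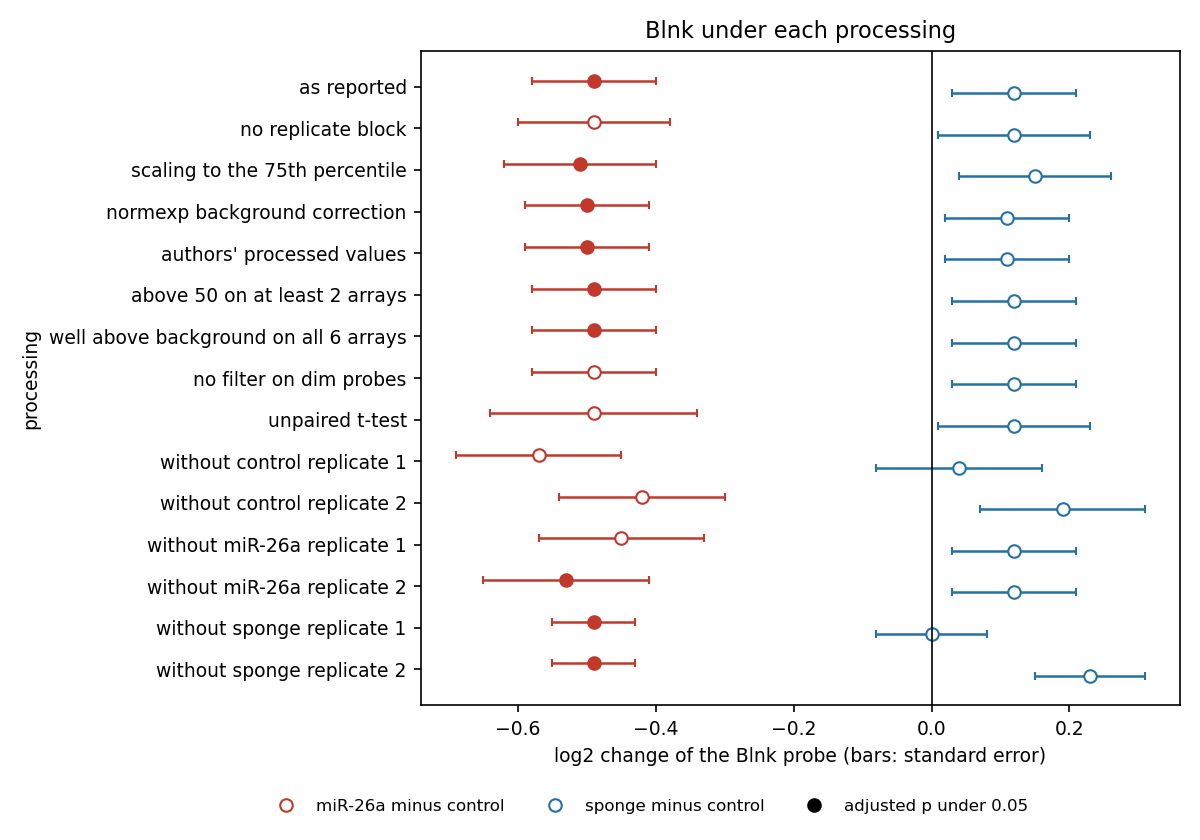
Log2 change of the Blnk probe (x axis, bars are standard errors) against control with miR-26a and with the sponge, under each way of processing (y axis). Filled points have an adjusted p under 0.05. The miR-26a change keeps its size while its call comes and goes.

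Lat encodes the membrane adaptor of T cell receptor signalling, which is also found in pre-B cells. Its probe, whose sequence is printed above, gave 10.12 and 10.28 in control, 10.16 and 10.10 with miR-26a and 10.16 and 10.30 with the sponge. The 3 groups overlapped. The difference from control was -0.07 with miR-26a (95% interval -0.28 to 0.14, limma adjusted p = 0.657) and 0.03 with the sponge (-0.18 to 0.23, adjusted p = 0.894). The line is labelled LAT-/-, and as for Blnk it is not known here whether the probe lies in the deleted part.

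Lcp2 encodes SLP-76, the relative of SLP-65 in T and myeloid cells. The brighter of its 2 probes (A_66_P136354, mm9 chr11:33992133-33992192, plus strand) gave 7.03 and 6.25 in control, 6.89 and 5.97 with miR-26a and 6.83 and 6.50 with the sponge. In each group the array of experiment 1 was the higher one, and the groups overlapped. The differences from control were -0.21 (95% interval -0.57 to 0.15, limma adjusted p = 0.416) and 0.03 (-0.34 to 0.39, adjusted p = 0.94), the widest intervals among the tested probes. The other probe (A_55_P2180949, chr11:33989870-33989929) lies 2203 bases upstream and ranged from 4.52 to 5.31, with a processed signal under 50 on all arrays, and was not tested.

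Grb2 encodes the adaptor that carries the exchange factor SOS to receptors. Probe A_51_P198411 (mm9 chr11:115505444-115505488, minus strand) gave 12.66 and 12.66 in control, 12.61 and 12.73 with miR-26a and 12.45 and 12.54 with the sponge. The sponge arrays were the lowest, but the difference of -0.16 (95% interval -0.34 to 0.01) had a limma adjusted p of 0.332. Probe A_55_P2123727, 568 bases away (chr11:115506057-115506116), ranged from 9.61 to 9.81. Its change was 0.03 with miR-26a and -0.08 with the sponge, and that of the first probe with miR-26a was 0.01.

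Lyn encodes the Src family kinase that phosphorylates the CD79 chains and also acts on inhibitory receptors. Its probe (A_55_P1958088, mm9 chr4:3718682-3718741, plus strand) gave 8.53 and 8.55 in control, 8.27 and 8.28 with miR-26a and 8.55 and 8.51 with the sponge. Both miR-26a arrays lay below the other 4, and the control and sponge arrays overlapped. The difference of -0.27 (SE 0.07, 95% interval -0.43 to -0.10) had an unadjusted p of 0.00789 and a limma adjusted p of 0.0643, and thus missed the threshold over all probes. With the sponge it was -0.01 (-0.18 to 0.15, limma adjusted p = 0.925), and between miR-26a and sponge -0.25 (limma adjusted p = 0.0555).

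Syk encodes the tyrosine kinase that binds the phosphorylated CD79 chains. Its bright probe (A_55_P1962946, mm9 chr13:52744088-52744147, plus strand) gave 14.79 and 14.85 in control, 14.56 and 14.85 with miR-26a and 14.41 and 14.73 with the sponge. The sponge arrays lay below both controls, with a difference of -0.25 (95% interval -0.47 to -0.03, unadjusted p = 0.0341, limma adjusted p = 0.284), and the miR-26a arrays overlapped with control (-0.11, limma adjusted p = 0.476). This was the lowest unadjusted p of the 13 probes with the sponge.

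The second Syk probe (A_55_P2172867, chr13:52738924-52738983), designed on the cDNA AK049207 and 5104 bases upstream, was much dimmer. It gave 7.08 and 6.60 in control, 6.50 and 6.43 with miR-26a and 6.96 and 6.87 with the sponge. Here the miR-26a arrays were the lowest, by -0.38 against control (95% interval -0.67 to -0.09, limma adjusted p = 0.107) and by -0.45 against the sponge (limma adjusted p = 0.0531). The difference from control was -0.18 without control replicate 1, -0.58 without control replicate 2 and -0.24 with normexp. The difference between miR-26a and sponge passed the threshold in 4 of 14 alternatives, as with scaling to the 75th percentile (limma adjusted p = 0.0402). The probes of Syk therefore differed in which construct gave the lower signal, and neither was called against control.

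**Figure D3:**
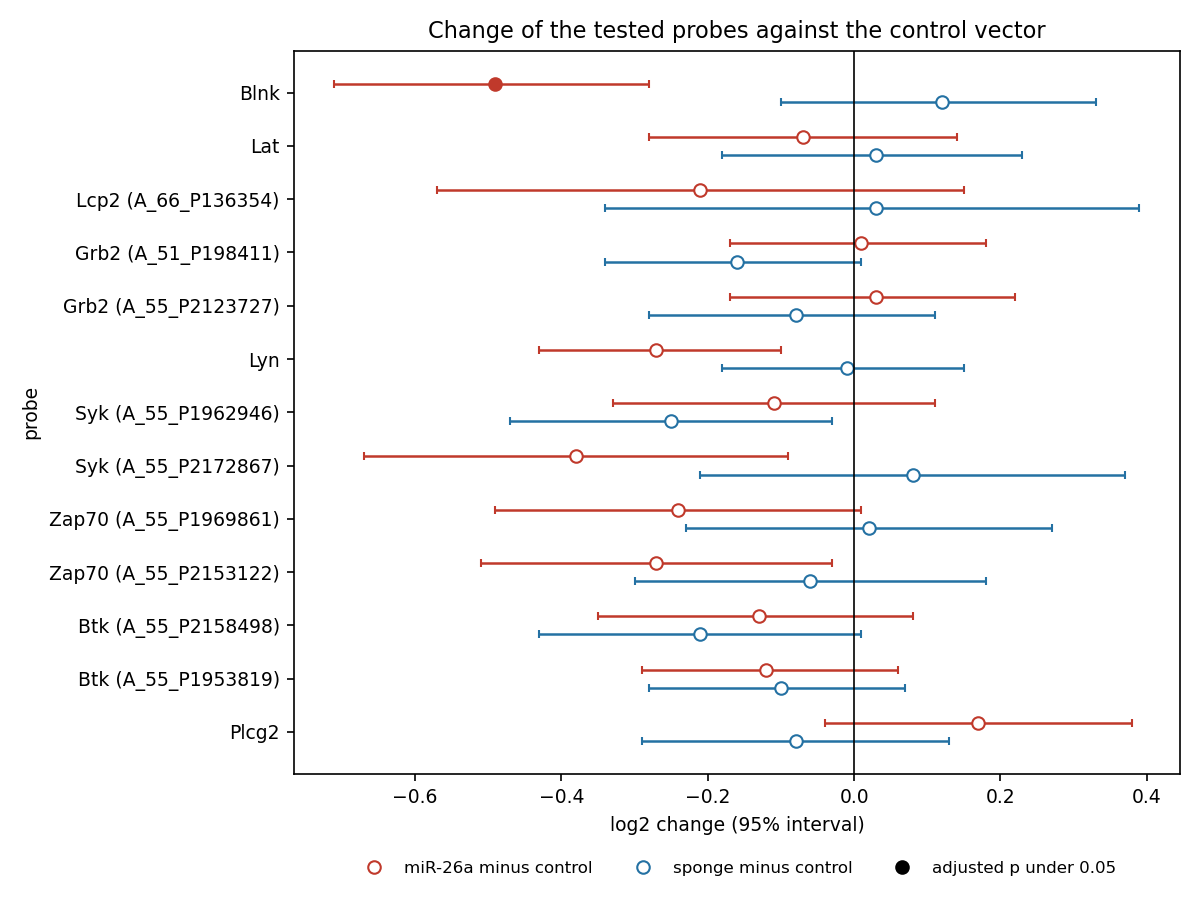
Log2 change against control (x axis, bars are 95% intervals) of the 13 tested probes (y axis) with miR-26a and with the sponge, which share the control arrays. The filled point, Blnk with miR-26a at -0.49, is the only one with an adjusted p under 0.05.

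Zap70 encodes the Syk relative best known from the T cell receptor. Probe A_55_P1969861 (mm9 chr1:36839542-36839601, plus strand) gave 13.67 and 13.79 in control, 13.44 and 13.53 with miR-26a and 13.54 and 13.95 with the sponge. The probe printed above, which lies 167 bases upstream, gave 12.44 and 12.61, 12.21 and 12.31, and 12.26 and 12.67 in the same order. Both probes were lower than both controls on the miR-26a arrays, while the sponge arrays spread over a wider range that included the controls.

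The differences of the Zap70 probes with miR-26a were -0.24 (95% interval -0.49 to 0.01, limma adjusted p = 0.191) and -0.27 (-0.51 to -0.03, limma adjusted p = 0.145), and with the sponge 0.02 and -0.06. Neither was called. The probes lie close together on 1 transcript and are not independent. The summed normalized signal of the T cell markers was 1527 to 1604 in control, 1414 to 1529 with miR-26a and 1285 to 1367 with the sponge. Of its members Cd5 fell with miR-26a by 1.98 (limma adjusted p = 0.00268). The Cd5 probe had a processed signal of 27.6 and 15.5 with miR-26a. It passed the signal limit of 50 only through the control and sponge arrays, which favours a fall. The tested probes of Cd3e and Cd4 changed with miR-26a by -0.09 and -0.03 (limma adjusted p = 0.674 and 0.864). With the sponge these probes changed by -0.29 and -0.32 (limma adjusted p = 0.29 and 0.224). Cd5 changed with the sponge by 0.35 (limma adjusted p = 0.234). The part of T cell transcripts in the Zap70 values was not tested.

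Btk encodes the Tec family kinase that activates PLC gamma 2. Probe A_55_P2158498 (mm9 chrX:131076995-131077054, minus strand) gave 13.38 and 13.27 in control, 13.11 and 13.27 with miR-26a and 13.10 and 13.13 with the sponge. Its lowest arrays were those of the sponge and the first of miR-26a, and the difference was -0.21 with the sponge (95% interval -0.43 to 0.01, limma adjusted p = 0.325) and -0.13 with miR-26a (limma adjusted p = 0.395). Probe A_55_P1953819 (chrX:131083955-131084014), 6900 bases upstream, ranged from 10.18 to 10.37. Its 2 controls were above the other 4 arrays, with differences of -0.12 with miR-26a and -0.10 with the sponge (limma adjusted p = 0.345 and 0.496).

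Plcg2 encodes PLC gamma 2, the enzyme that turns pre-BCR signals into calcium and diacylglycerol. Its probe (A_51_P279163, mm9 chr8:120158980-120159037, plus strand) gave 15.38 and 15.46 in control, 15.57 and 15.61 with miR-26a and 15.21 and 15.48 with the sponge. Among the 13 probes it was the only one whose miR-26a arrays both exceeded both controls. The difference was 0.17 with miR-26a (95% interval -0.04 to 0.38, limma adjusted p = 0.262), -0.08 with the sponge (limma adjusted p = 0.682) and 0.25 between them (unadjusted p = 0.0286, limma adjusted p = 0.103). Between miR-26a and sponge, limma called 1 of 13 probes lower (Blnk) and 0 higher, compared with 8.49% and 8.28% of all probes.

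The wider pathway was described with 8 lists of pre-BCR signalling genes, 82 of which are on the array with 113 probes. Of these, 89 probes of 67 genes were tested. With miR-26a 12 probes of 10 genes fell and 0 rose (limma, with 30 lower and 5 higher at an unadjusted p under 0.05), and the median change was -0.10. Over all tested probes 5.14% were called lower and 4.5% higher, and at an unadjusted p under 0.05 the shares were 13.0% and 14.3%. Without the 9 genes it was 11 of 76 probes, with a median of -0.08. With the sponge limma called 0 of 89 (9 lower and 3 higher at an unadjusted p under 0.05), with a median of -0.05. The count with miR-26a was 0 without control replicate 1, 0 without control replicate 2, 6 without either sponge array and 1 (Gab1) without the block. Of 28 tested probes of the cell type markers, 4 were called with miR-26a beside these falls, Rag1 at -2.47 (limma adjusted p = 0.00555), Cd5 at -1.98, 1 of the 2 tested probes of Itgam at -0.82 (0.0072) and Cd68 at 0.33 (0.0421). Cd5 passed the signal limit only through control and sponge arrays. The part of these marker changes in the pathway values was not tested.

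Of the receptor itself no measured probe passed the test. Its heavy chain gene Ighm is not on the array by that name and was not measured. The list of the receptor held 7 probes, of the surrogate light chain genes Igll1, Vpreb1 and Vpreb2, the signalling chain genes Cd79a and Cd79b, and Vpreb3. Their changes with miR-26a were -0.18 to 0.04, and limma called 0. At an unadjusted p under 0.05, 1 of the 7 was lower (13.0% of all tested probes). Among the adaptors 2 of 26 tested probes fell (5.14% of all tested probes), Blnk and the docking protein gene Gab1. Gab1 went from 7.37 and 7.52 in control to 6.47 and 6.56 with miR-26a, with 7.41 and 7.45 in the sponge arrays, a fall by 0.93 (SE 0.07, limma adjusted p = 0.0047). It was called in 10 of 14 alternatives, and its change was smaller with normexp background correction (-0.55).

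Of 7 tested probes of Src family kinases and their regulators 2 fell with miR-26a (5.14% of all tested probes). Among them was Fyn, a Src family kinase gene, which went from 9.23 and 9.14 in control to 8.42 and 8.66 with miR-26a, with 9.24 and 9.24 in the sponge arrays. Both miR-26a arrays of Fyn lay below the other 4, a fall by 0.64 (SE 0.10, limma adjusted p = 0.0203). Fyn was called in 7 of 14 alternatives. None of 4 Syk family and 5 Tec family probes was called by limma. At an unadjusted p under 0.05, 2 of each were lower (13.0% of all tested probes).

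Downstream of PLC gamma, 3 of 15 probes fell (5.14% of all tested probes). They belong to Prkcq (-1.04, SE 0.13, limma adjusted p = 0.0114) and, with 2 probes at -0.47 and -0.54, to Prkcd, both of which encode diacylglycerol-responsive protein kinases C. Prkcq is dim, with a processed signal of 34.7 and 21.3 on the miR-26a arrays. It passed the signal limit of 50 only through the control and sponge arrays, where it was higher, which favours a fall. Its change was -0.37 with normexp background correction. Among exchange factors and phospholipases 2 of 11 tested probes fell (5.14% of all tested probes). They were both tested probes of Rasgrp2, which encodes an exchange factor for Rap, and each fell by 0.35. Each Rasgrp2 probe was called in 5 of 14 alternatives. The list of inhibitory receptors, phosphatases and ubiquitin ligases had 3 of 14 probes that fell (5.14% of all tested probes). They were probes of Ubash3a, Ubash3b (both -0.58, Ubash3a -0.36 with normexp) and the ubiquitin ligase gene Cblb (-0.35). Ubash3a and Ubash3b encode TULA proteins that restrain Syk family kinases. The other tested probe of Ubash3b was at -0.44 and that of Cblb at 0.18, and neither was called (limma adjusted p = 0.106 and 0.673). The 3 probes that fell were called in 6, 6 and 4 of 14 alternatives. The genes with a called probe thus included both promoters and inhibitors of the signal.

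**Figure D4:**
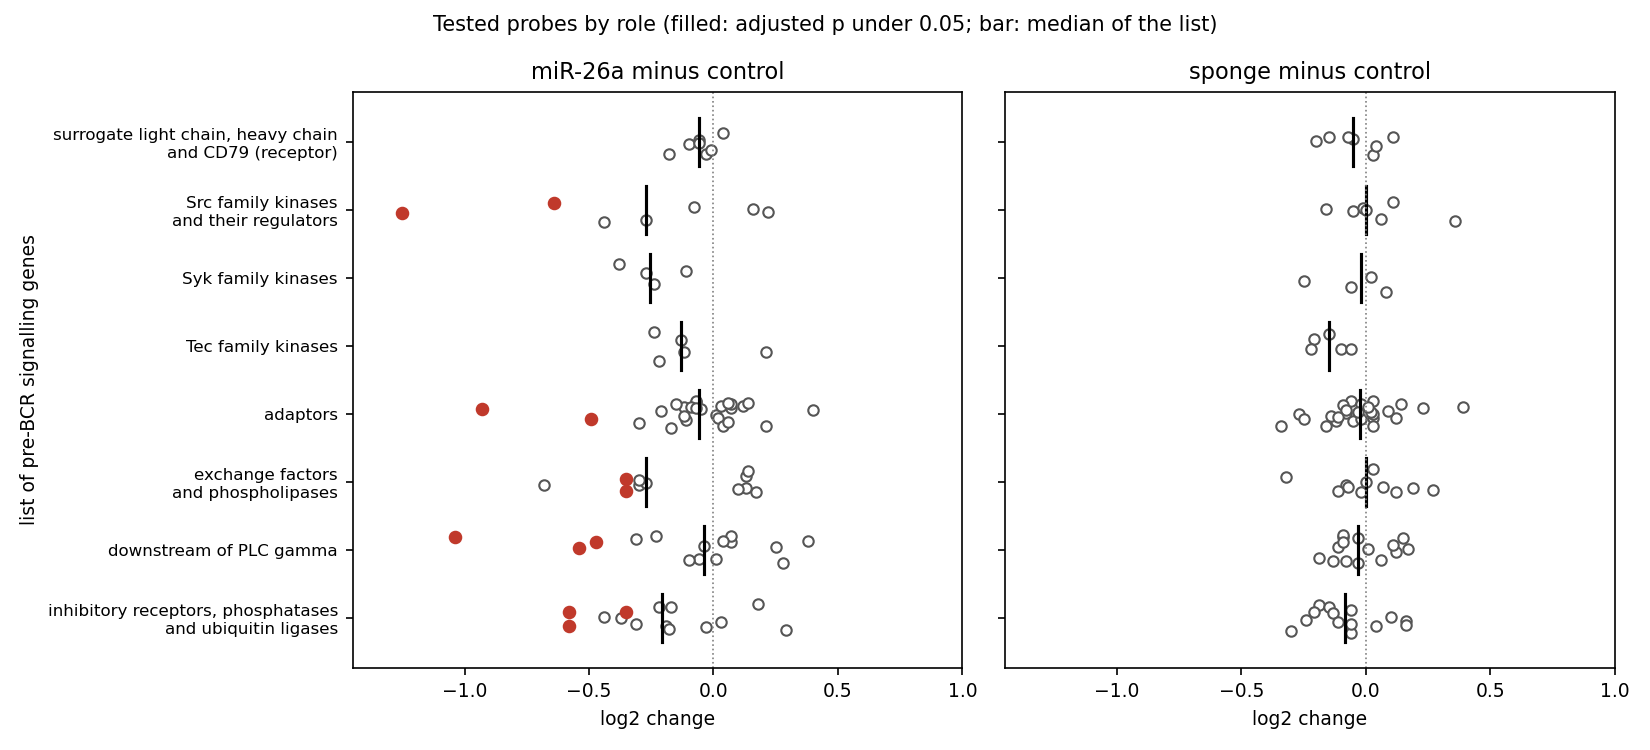
Log2 change (x axis) of the 89 tested probes of pre-BCR signalling genes by list (y axis) with miR-26a (left) and with the sponge (right). Points are probes, bars are the medians of a list, and filled points have an adjusted p under 0.05. The 12 filled points lie below 0 with miR-26a, and there are 0 with the sponge.

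In the direct comparison of miR-26a and sponge, 13 of the 89 probes were lower and 4 higher with miR-26a, where all tested probes gave 8.49% and 8.28%. The higher ones, named after their values were seen, were Ptprc (0.38), Dok3 (0.48), Vav1 (0.45) and Orai1 (0.37), which encode the phosphatase CD45, an inhibitory adaptor, an exchange factor and a calcium channel. Against control none of these 4 probes was called by limma with either construct. Their changes were 0.13 to 0.28 with miR-26a and -0.34 to -0.09 with the sponge. The other tested probes of Vav1 and Orai1 were not called between miR-26a and sponge (0.20 and 0.32, limma adjusted p = 0.134 and 0.0819).

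Across the 6 arrays the annotated probes most like Blnk were those of Tmbim4 (Pearson r = 0.9973), Ccnk (0.9971) and Sipa1l1 (0.9967), out of 15194 compared. With 6 arrays such values are frequent, and 274 probes had an r over 0.95. The changes of these 3 with miR-26a were -0.33, -0.21 and -0.47, and with the sponge 0.07, 0.07 and 0.11.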

How the data were processed

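The authors hybridized Cy3-labelled RNA to Agilent G3 Mouse 8x60K arrays, 6 on 1 slide with 1 scan time. They deposited the scanner output (Agilent Feature Extraction 10.7.3.1 per the file headers, 10.7.1.1 per the processing notes), with each spot's intensity as a background-corrected processed signal. The signal table the authors also deposited holds quantile-normalized signals on a linear scale, of which log2 was taken. Groups and replicate numbers came from the labels. Labels of the control arrays carry accessions of other samples too, and whether they come from an earlier series is not known here.

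Here, processed signals of non-control spots were quantile-normalized and put on the log2 scale, and unflagged spots of a probe were averaged. A probe entered the test if 1 or more arrays had it well above background and 4 or more had a signal over 50 (20168 of 55681). limma 3.58.1 (R 4.3.3) was fitted to all 6 arrays with the experiment, given by the replicate number, as a block, because the methods normalize to the control of each experiment, followed by two-sided moderated tests and Benjamini-Hochberg adjustment. Same-numbered arrays deviated together (correlations 0.379, 0.588 and 0.454), but the number equals the slide row on all 6 arrays, so that experiment and row cannot be told apart. The p-values measure the spread between these arrays that remains after group and block are fitted, moderated across all tested probes. The fit was tested on simulated data.

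The members and gene lists were chosen with earlier results of these data known. Named were all member probes, up to 15 pathway probes with the smallest adjusted p under 0.05 against control, some of which are not reported here, and the 3 probes most like the member probe with the smallest adjusted p. Ighm is not on the array by that name. Summed marker signals add all probes of a list. In the markers, 5 of 12 myeloid genes (summed signal 56568 to 68492 in control, 59020 to 64931 with miR-26a and 55146 to 73445 with the sponge), 3 of 5 natural killer genes (1348 to 1408, 1194 to 1291 and 1104 to 1279) and 2 of 8 megakaryocyte and mast cell genes (112 to 120, 130 to 192 and 100 to 109) were also well above background on all arrays. Most of the myeloid sum came from the probe of Csf3r, with a log2 signal of 15.67 and 15.94 in control. The myeloid genes Cd14 and S100a8 were well above background on no array. Coordinates and names are those of the array design (mm9), and exons were not assigned. Tables and plots were made with Python 3.11.15, numpy 2.4.6, pandas 2.3.3 and matplotlib 3.10.9.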

Additional observations from a re-analysis of the deposited data

How the results depend on the processing

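The alternatives were a fit without the replicate block, normexp background correction, scaling to the 75th percentile, the authors' processed values, 3 other filters, an unpaired t-test (named in a figure legend of the study, not in its array methods) and leaving out each array. The replicate block pairs the arrays of an experiment. Without it, limma called 238 probes lower and 73 higher with miR-26a, 632 and 365 against the sponge, 0 of the 13 probes against control, and 1 pathway probe lower with miR-26a, 6 lower and 0 higher against the sponge. With no filter on dim probes and by the unpaired t-test all of these counts were 0, and so was the count of probes higher with the sponge. With the sponge, 1 (75th percentile), 26 (normexp) and 2 (above 50 on at least 2 arrays) probes were lower, and 10 (normexp) and 8 (at least 2 arrays) higher. None of these alternatives called any of the 13 probes with the sponge against control. Scaling to the 75th percentile called 2 of the 13 probes lower with miR-26a than with the sponge. Leaving out each array gave 75 to 916 probes lower and 29 to 683 higher with miR-26a, 0 to 22 and 0 to 13 with the sponge, and 285 to 1349 and 125 to 1087 between them. It gave 0 to 1 of the 13 probes lower with miR-26a and 0 to 2 against the sponge, and 0 to 8 pathway probes lower and 0 to 1 higher with miR-26a, and 2 to 13 and 0 to 4 against the sponge. The cause of these shifts was not tested. Blnk against the sponge lost its call without the filter (adjusted p = 0.206), by the unpaired t-test (0.325) and without sponge replicate 1 (0.075) or 2 (0.0502), and against control by the unpaired t-test (0.415). Changes near 0 that were never called turned sign, namely Grb2 A_51_P198411 with miR-26a (-0.01 with normexp) and Zap70 A_55_P2153122 with the sponge (0.01 at the 75th percentile). On leaving out each array the changes with miR-26a ranged from -0.17 to 0.04 (Lat), -0.04 to 0.06 and -0.02 to 0.08 (Grb2) and -0.24 to 0.01 (Syk A_55_P1962946). Those with the sponge ranged from -0.03 to 0.09 (Lat), -0.23 to 0.28 (Lcp2), -0.17 to 0.00 (Grb2 A_55_P2123727), -0.04 to 0.01 (Lyn), -0.12 to 0.27 (Syk A_55_P2172867), -0.13 to 0.17 and -0.20 to 0.08 (Zap70) and -0.18 to 0.03 (Plcg2). Those of miR-26a against the sponge ranged from -0.20 to 0.01 (Lat), -0.50 to 0.02 (Lcp2), and -0.03 to 0.18 and -0.06 to 0.04 (Btk). No scaling moved the median of all probes by over 0.03. The pathway counts under the alternatives were added after the data were seen.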
